A study of Homo sapiens with 10 samples.

Results

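The circadian clock genes CLOCK, PER1, PER2, PER3, CRY1, CRY2, NR1D1, NR1D2, DBP and BHLHE40 were followed by RNA sequencing in PC3 cells, an established human line grown from a bone metastasis of prostate cancer. They were taken by name, as a set chosen with earlier results of these data known. The Ensembl identifiers of the count tables were matched to current or older gene symbols, and these 10 members were found among 57445 identifiers. All 10 passed the filter on low counts and were tested together with the rest of 18478 genes.

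There were 10 libraries in 5 groups of 2. Hairpins were stably expressed in 3 groups, named Scramble (the control), RNF2 shRNA1 and RNF2 shRNA2, and the other groups were PC3 cells exposed to PRT4165 or to GW-516 for 48 hours. RNF2 is the ubiquitin ligase of Polycomb repressive complex 1 (PRC1), which represses genes and ubiquitylates histone H2A, and the small molecule PRT4165 blocks that activity; GW-516 is known here by its code name only. The labels name no hairpin for the compound groups, no vehicle group, no dose, and no clone or pool for the hairpin lines. A compound group therefore differs from Scramble in compound, hairpin vector and any vehicle, which cannot be told apart. The hour of harvest and any synchronisation of the cells are not given in the sources used here, so each level is that of a cell population at an unstated phase. In bulk RNA, fewer cells expressing a gene and less RNA per cell cannot be told apart.

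Total counts ran from 65877850 to 108380198 per library. RNF2 was 30.6 and 28.3 CPM (counts in proportion to a TMM-adjusted library size) in Scramble and 12.1 and 12.0 with RNF2 shRNA1, a log2 change of -1.29. RNF2 was 33.5 and 35.3 CPM in the libraries labelled RNF2 shRNA2, above both Scramble libraries, while BMI1, another PRC1 subunit, was 53.0 and 61.6 CPM against 251 and 255 CPM in Scramble. The RNF2 label of those 2 libraries was thus not borne out by RNF2 itself, and directions given for them are those of the libraries so labelled. Replicate 2 of that group was the deepest library, and its header names a single lane. The file headers name the cells MDV3 rather than PC3, without explanation in the labels. The genes taken as markers of the PC3 line, KRT8, KRT18, KRT19, EPCAM, CD44 and VIM, summed to between 2715 and 3110 CPM. VIM, which is not an epithelial marker, made up 1045 to 1526 CPM of these sums. Androgen receptor and luminal genes summed to at most 0.456 CPM, and neuroendocrine genes to at most 0.0592 CPM. The libraries of Scramble, RNF2 shRNA1 and GW-516 differed within their pairs by a chi-square of 2.15 to 2.2 per degree of freedom over genes, with both ends of a fragment counted; it was 12.2 for RNF2 shRNA2 and 6.89 for PRT4165. The main fit gives each gene a single spread shared by all groups. Standard errors may therefore be too small for RNF2 shRNA2 and PRT4165 and too large for the other groups. Nothing in the labels says that libraries came from separate cultures, so p-values may measure technical spread only. Both library values are therefore printed in place of a standard deviation, and the tests were repeated with the 3 close pairs each summed to 1 sample. That fit takes its spread, for every group, only from the RNF2 shRNA2 and PRT4165 pairs, which had the larger chi-squares.

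The mammalian clock is a feedback loop of transcription. CLOCK pairs with ARNTL (BMAL1) to activate genes through E-boxes; among these are the PER and CRY genes, whose proteins return to the nucleus and repress CLOCK and ARNTL. A further loop runs through the nuclear receptors NR1D1 and NR1D2, which repress ARNTL at elements that ROR receptors activate, and outputs such as DBP act at D-boxes that NFIL3 represses. BHLHE40 is an E-box repressor that also answers hypoxia and growth signals. Most tissues and many cultured lines, epithelial ones among them, express these genes.

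The DNA before the start sites was read for these elements in RefSeq promoter windows (GRCh38.p14), each 250 bases before to 50 bases after a start; all 10 genes had a window and 4 had 2, which gave 14. The motifs, searched on both strands, were the E-box CACGTG, the E-prime box CACGTT, the D-box TTATGTAA, the ROR element cores TAGGTCA and TGGGTCA and the cAMP response element TGACGTCA; no string contains another or its reverse complement. CACGTG occurred in 3 of the 14 windows, in PER1, NR1D2 and BHLHE40, against 7.26% of 35116 windows of this length over all genes. CACGTT occurred in 5 of the 14, in CLOCK, PER2, CRY1, CRY2 and NR1D1, against 5.34% of all windows. TTATGTAA was found in 2 windows, of PER3 and NR1D2 (0.886% of all), TAGGTCA in 1, of CRY2 (1.85%), and TGGGTCA in 2, of CLOCK and NR1D2 (3.92%). Matches lay only in the second window of CLOCK, CRY2 and NR1D2 and only in the first window of PER3. TGACGTCA, found in 1.85% of all windows, was in no window of the 10 genes, and the DBP window held none of the 6 strings. A match is a description of letters and not a bound site.

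**Figure D1:**
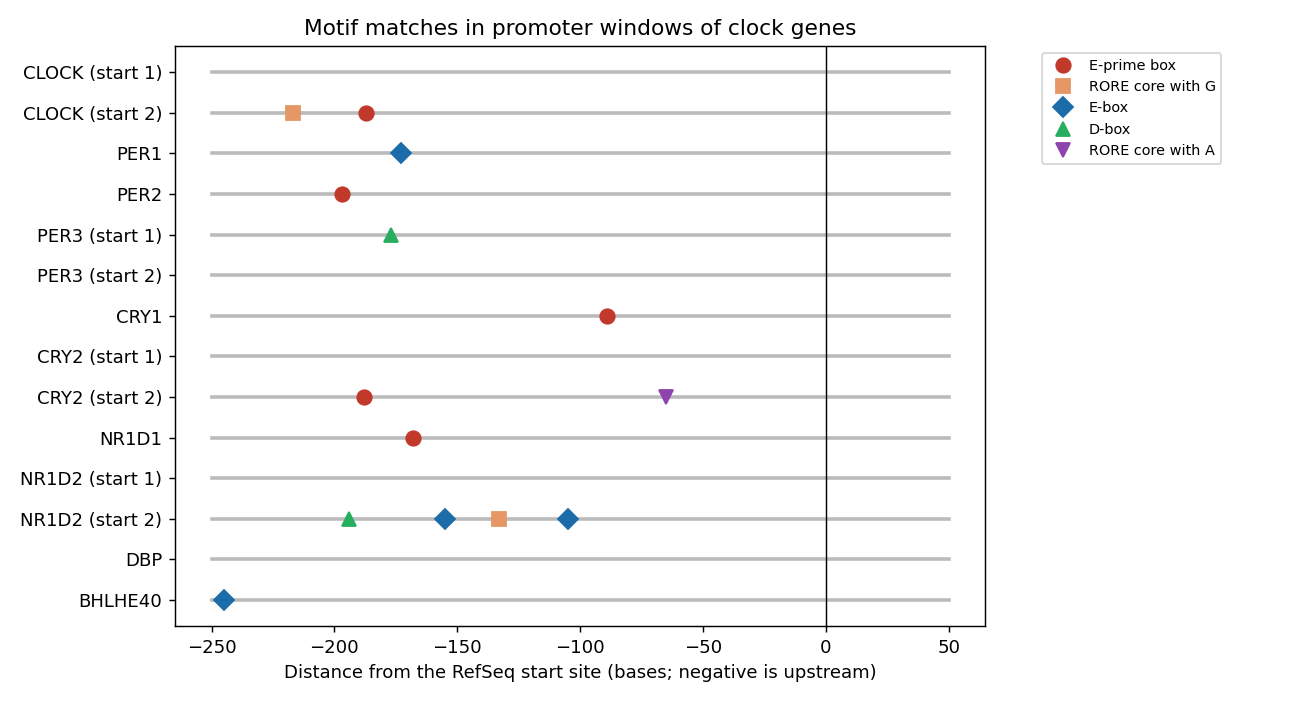
Matches to the motif strings in the 14 promoter windows of the 10 clock genes; the x axis is the distance in bases from the RefSeq start site, each grey line is a window, and each symbol marks the first base of a match. The second NR1D2 window holds 4 matches, and the DBP window holds none.

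The stretches that carry these motifs and hold no annotated exon are shown for the 3 PER genes, whose levels had the widest ranges over the groups, and for the NR1D1 and NR1D2 pair, whose levels parted with GW-516. They are PER1 at chr17:8152436-8152654 (minus strand, 219 bases), PER2 at chr2:238288611-238288860 (minus, 250 bases), PER3 at chr1:7784041-7784290 (plus, 250 bases), NR1D1 at chr17:40100726-40100839 (minus, 114 bases) and NR1D2 at chr3:23945871-23946120 (plus, 250 bases), all on GRCh38.p14 and written 5′ to 3′ on the gene's strand. Capitals mark the motifs, which in NR1D1 and in the D-box and ROR core of NR1D2 lie on the opposite strand and so read as their reverse complements.
PER1: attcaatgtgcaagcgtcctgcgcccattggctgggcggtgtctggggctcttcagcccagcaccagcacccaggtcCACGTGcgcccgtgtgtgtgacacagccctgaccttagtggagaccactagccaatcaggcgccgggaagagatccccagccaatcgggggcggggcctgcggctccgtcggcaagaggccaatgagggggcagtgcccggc
PER2: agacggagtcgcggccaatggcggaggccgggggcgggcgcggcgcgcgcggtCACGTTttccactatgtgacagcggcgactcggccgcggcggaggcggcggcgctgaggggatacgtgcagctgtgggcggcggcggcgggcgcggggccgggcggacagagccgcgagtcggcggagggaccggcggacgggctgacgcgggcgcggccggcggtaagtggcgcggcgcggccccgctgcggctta
PER3: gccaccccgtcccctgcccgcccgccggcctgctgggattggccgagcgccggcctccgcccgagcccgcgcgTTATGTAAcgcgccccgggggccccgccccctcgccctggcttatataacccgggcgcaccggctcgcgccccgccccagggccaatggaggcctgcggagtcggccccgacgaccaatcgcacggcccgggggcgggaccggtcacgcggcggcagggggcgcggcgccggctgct
NR1D1: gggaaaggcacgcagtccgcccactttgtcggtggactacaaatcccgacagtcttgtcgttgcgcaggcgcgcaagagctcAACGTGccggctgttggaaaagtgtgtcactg
NR1D2: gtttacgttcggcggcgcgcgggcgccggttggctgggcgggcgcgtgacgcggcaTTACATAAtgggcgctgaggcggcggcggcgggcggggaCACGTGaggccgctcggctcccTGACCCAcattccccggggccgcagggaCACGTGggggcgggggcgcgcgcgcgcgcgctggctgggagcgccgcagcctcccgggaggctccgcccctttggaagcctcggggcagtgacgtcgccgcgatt
The PER1 stretch thus has a canonical E-box, the PER2 and NR1D1 stretches an E-prime box, the PER3 stretch a D-box, and the NR1D2 stretch a D-box, 2 E-boxes and a ROR core.

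Levels of different genes were set beside each other per kilobase of annotated exon. That length takes in the exons of all annotated transcripts, 6544 bases for DBP. The transcripts present may be shorter, so the ranking is approximate. BHLHE40 had the highest level with a mean over groups of 63.0 CPM per kb. NR1D2 followed at 19.1, CLOCK at 9.12, NR1D1 at 7.97 and CRY1 at 7.65 CPM per kb. The other repressors were lower, PER1 at 3.73, PER3 at 2.21, CRY2 at 1.86 and PER2 at 1.28 CPM per kb, and DBP was lowest at 0.831 CPM per kb. The range between the highest and the lowest group mean, in log2 CPM, was widest for PER3 (2.02), PER2 (1.29) and PER1 (1.24) and narrowest for CLOCK (0.382).

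**Figure D2:**
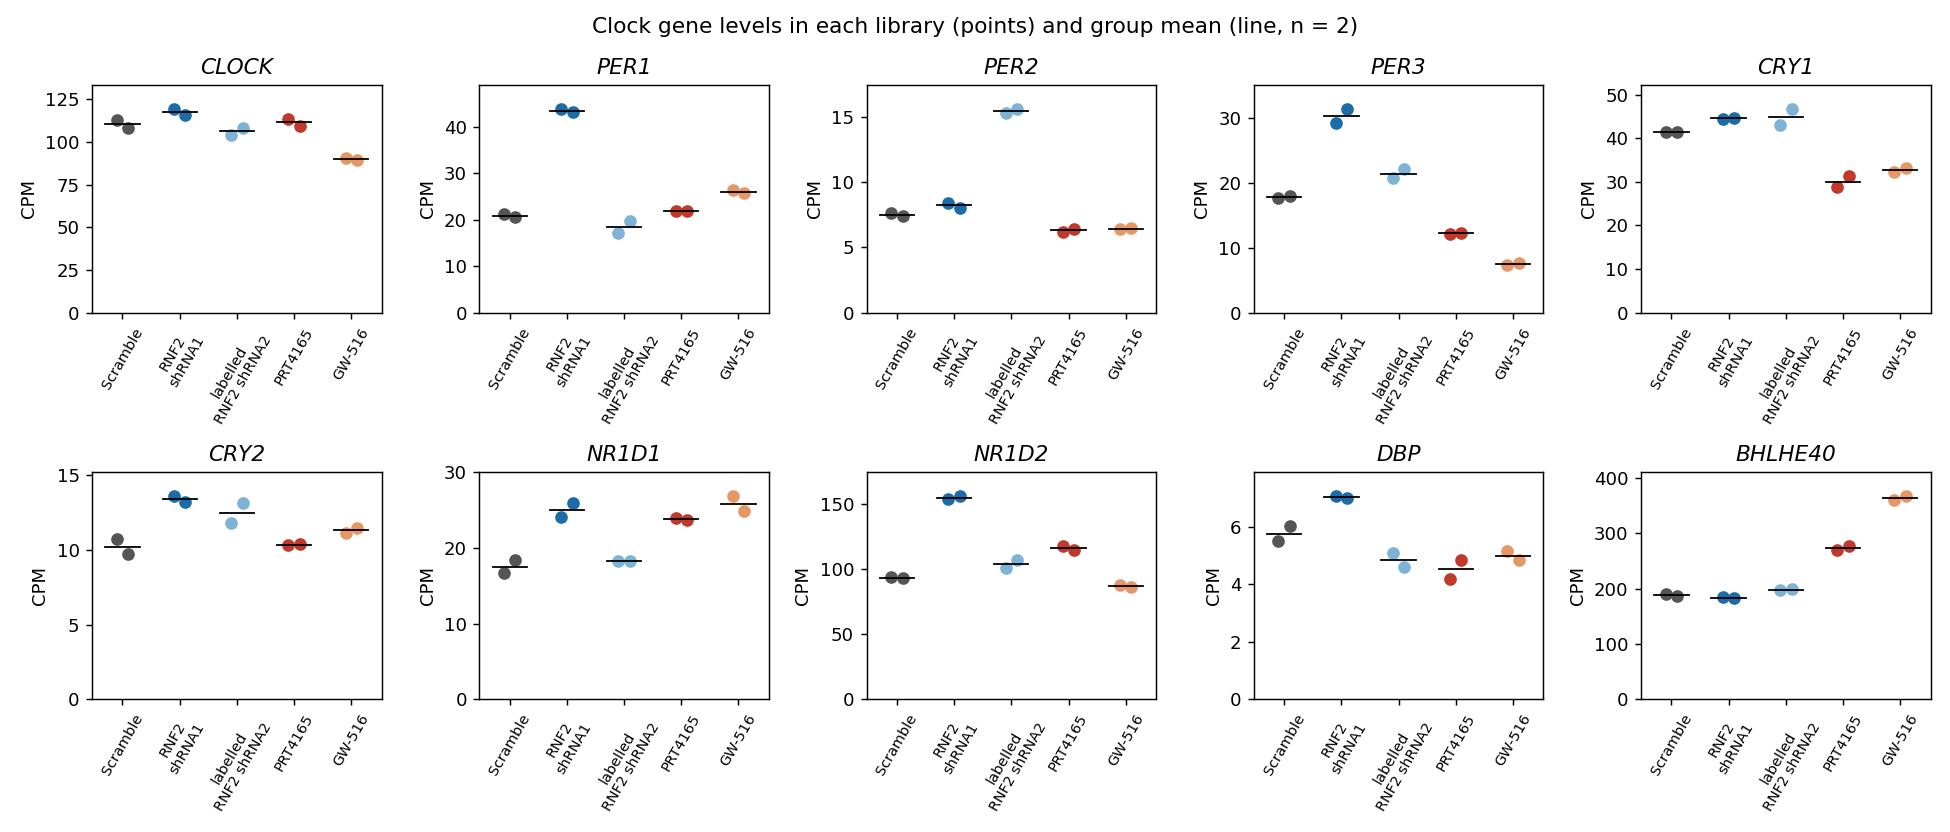
TMM-normalized CPM (y axis, from 0) of each clock gene in the 5 groups (x axis); points are libraries and lines group means, n = 2. PER1 stands highest with RNF2 shRNA1, PER2 in the libraries labelled RNF2 shRNA2, and PER3 falls from 30.3 CPM with RNF2 shRNA1 to 7.46 CPM with GW-516.

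Against Scramble, the largest changes were the rise of PER1 with RNF2 shRNA1, the rise of PER2 in the libraries labelled RNF2 shRNA2, and, with GW-516, the fall of PER3 and the rise of BHLHE40. With RNF2 shRNA1, 7 members rose and none fell, at a background of 54.7% of all genes called, 26.2% higher and 28.6% lower. Of the 10, 5 rose and 1 fell in the libraries labelled RNF2 shRNA2, at 42.1% called, 21.1% higher and 21.0% lower. With PRT4165, 3 rose and 4 fell, at 41.6% called, 19.9% higher and 21.7% lower. With GW-516, 3 rose and 5 fell, at 55.5% called, 26.5% higher and 29.0% lower. The median log2 change of the 10 members was 0.339, 0.0943, 0.0162 and -0.154 in that order, where the median of all genes lay between -0.015 and 0.00858. The median absolute log2 change was 0.339, 0.161, 0.331 and 0.307 for the members and 0.331, 0.224, 0.222 and 0.309 for all genes, so that the members' median was the higher with PRT4165 and the lower in the libraries labelled RNF2 shRNA2. With 41.6% to 55.5% of all genes called, a call does not by itself set a member apart from other genes. Whether the share of members called differs from that of other genes was not tested. All 4 comparisons share the Scramble libraries.

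**Figure D3:**
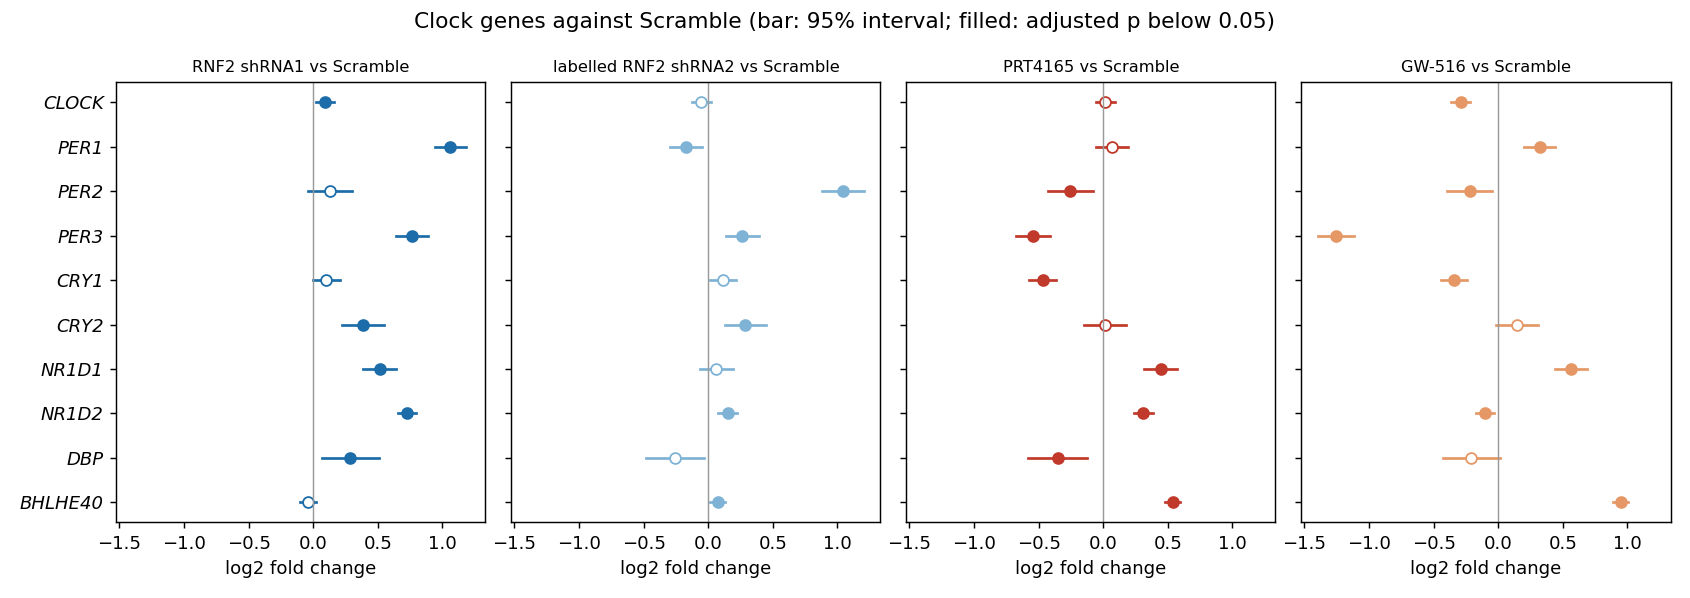
Log2 fold change against Scramble (x axis) of the 10 clock genes (y axis) in 4 panels, one for each hairpin or compound group; bars are 95% intervals from the edgeR fit and filled points have an adjusted p below 0.05. The changes beyond 1 on the log2 scale are PER1 with RNF2 shRNA1, PER2 in the libraries labelled RNF2 shRNA2 and PER3 with GW-516.

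CLOCK (ENSG00000134852.10, chr4:56294070-56413305 on GRCh37, minus strand) encodes the factor that binds E-boxes together with ARNTL. Its CPM was 113 and 108 in Scramble, 119 and 116 with RNF2 shRNA1, 104 and 108 in the libraries labelled RNF2 shRNA2, 114 and 110 with PRT4165, and 90.9 and 89.6 with GW-516. The GW-516 libraries lay below all others. There CLOCK fell by 0.29 on the log2 scale (SE 0.0354, edgeR quasi-likelihood test, adjusted p = 1.46e-07), and it was lower than in the next group up, labelled RNF2 shRNA2, at adjusted p = 2.26e-06. With RNF2 shRNA1 it was higher by 0.092 (adjusted p = 0.0312), a call lost without Scramble replicate 2 (adjusted p = 0.171), without RNF2 shRNA1 replicate 1 (0.222) and with the close pairs summed (0.296). The neighbours RNF2 shRNA2, Scramble, PRT4165 and RNF2 shRNA1, in rising order, did not pass the test (adjusted p = 0.252, 0.767 and 0.0733). The last of these differences, between libraries that did not overlap (log2 -0.076, 95% interval -0.149 to -0.00335), passed in 4 of 18 alternatives.

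PER1 (ENSG00000179094.9, chr17:8043790-8059824, minus strand) is a repressor of the core loop that also responds fast to serum, glucocorticoids and cAMP. Its CPM was 21.1 and 20.5 in Scramble, 43.8 and 43.3 with RNF2 shRNA1, 17.1 and 19.7 in the libraries labelled RNF2 shRNA2, 21.8 and 21.9 with PRT4165, and 26.4 and 25.7 with GW-516. The RNF2 shRNA1 libraries lay far above all others. PER1 rose 2.09-fold there (log2 1.06, SE 0.058, adjusted p = 7.48e-14) and 1.25-fold with GW-516 (log2 0.32, SE 0.0587, adjusted p = 4.61e-05), while with PRT4165 the log2 difference was 0.068 (95% interval -0.0559 to 0.193, adjusted p = 0.397). It fell by 0.17 in the libraries labelled RNF2 shRNA2 (adjusted p = 0.025), a call lost in 6 of 17 alternatives, among them without Scramble replicate 1 (0.146) or 2 (0.0775), without replicate 1 of that group (0.333) and with pairs summed (0.133). The rising order was RNF2 shRNA2, Scramble, PRT4165, GW-516 and RNF2 shRNA1, and GW-516 differed from PRT4165 (adjusted p = 9.65e-04) and from RNF2 shRNA1 (2.23e-11).

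PER2 (ENSG00000132326.7, chr2:239152679-239198743, minus strand), the paralogue whose protein stability sets much of the clock's period, had its largest change in another group than PER1. Its CPM was 7.65 and 7.39 in Scramble, 8.45 and 8.01 with RNF2 shRNA1, 15.4 and 15.6 in the libraries labelled RNF2 shRNA2, 6.18 and 6.45 with PRT4165, and 6.45 and 6.45 with GW-516. The libraries labelled RNF2 shRNA2 stood apart from all others. There PER2 rose 2.06-fold (log2 1.04, SE 0.0788, adjusted p = 9.56e-11), whereas with RNF2 shRNA1 the difference was 0.13 (95% interval -0.0429 to 0.305, adjusted p = 0.199). Set directly against each other, the libraries labelled RNF2 shRNA2 exceeded RNF2 shRNA1 by 0.91 for PER2 (adjusted p = 2.73e-10) and were 2.35-fold lower for PER1 (log2 -1.23, adjusted p = 2.66e-15). With PRT4165 and GW-516 PER2 fell by 0.25 (SE 0.0855, adjusted p = 0.0195) and 0.22 (SE 0.084, adjusted p = 0.0284). The first call was lost in 6 of 18 alternatives and the second in 9 of 18. Both were lost with pairs summed (0.126 and 0.202) and without Scramble replicate 1 (0.142 and 0.171) or 2 (0.0693 and 0.0806). The first was also lost without PRT4165 replicate 1 (0.123), and the second without GW-516 replicate 1 (0.127) or 2 (0.123) and without RNF2 shRNA1 replicate 2 (0.0561). The 2 compound groups, lowest in its order, did not differ beyond their spread (log2 0.032, 95% interval -0.143 to 0.207).

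PER3 (ENSG00000049246.10, chr1:7844380-7905237, plus strand), the remaining period gene, which lies outside the core loop in mice and is strongly rhythmic in many tissues, varied most. Its CPM was 17.7 and 17.9 in Scramble, 29.3 and 31.3 with RNF2 shRNA1, 20.7 and 22.1 in the libraries labelled RNF2 shRNA2, 12.1 and 12.3 with PRT4165, and 7.30 and 7.61 with GW-516. No library of any group overlapped another group, and both hairpin groups lay above Scramble and both compound groups below it. PER3 rose 1.70-fold with RNF2 shRNA1 (log2 0.77, SE 0.0605, adjusted p = 7.53e-11) and 1.20-fold in the libraries labelled RNF2 shRNA2 (log2 0.27, SE 0.0608, adjusted p = 9.07e-04). It fell 1.46-fold with PRT4165 (log2 -0.55, SE 0.0645, adjusted p = 1.77e-07) and 2.39-fold with GW-516 (log2 -1.26, SE 0.0671, adjusted p = 5.73e-14). All 4 calls held in every alternative run. All neighbours in the order differed, with GW-516 below PRT4165 at adjusted p = 9.65e-09 and the libraries labelled RNF2 shRNA2 below RNF2 shRNA1 at 6.12e-08, so that GW-516 and RNF2 shRNA1 stood 4.06-fold apart (log2 -2.02, adjusted p = 1.67e-18). UTS2, which encodes the peptide urotensin 2, shares 868 exon bases with PER3 on the opposite strand; counting was by strand. UTS2 was at 2.36 and 2.63 CPM in Scramble, 19.5 and 19.3 with RNF2 shRNA1, 0.558 and 0.550 in the libraries labelled RNF2 shRNA2, 0.669 and 0.779 with PRT4165, and 1.68 and 1.73 with GW-516. It was thus highest where PER3 was highest and, unlike PER3, lower in the libraries labelled RNF2 shRNA2 than with GW-516; its part in the PER3 values was not tested.

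CRY1 (ENSG00000008405.7, chr12:107385142-107487607, minus strand), the stronger cryptochrome repressor of CLOCK and ARNTL, changed with the compounds. Its CPM was 41.5 and 41.4 in Scramble, 44.5 and 44.5 with RNF2 shRNA1, 42.9 and 46.6 in the libraries labelled RNF2 shRNA2, 28.9 and 31.2 with PRT4165, and 32.3 and 33.1 with GW-516. The 4 compound libraries lay below all 6 hairpin libraries. CRY1 fell 1.38-fold with PRT4165 (log2 -0.47, SE 0.0505, adjusted p = 4.53e-08) and 1.27-fold with GW-516 (log2 -0.34, SE 0.0497, adjusted p = 2.27e-06), and the compounds differed from each other by 0.13 (95% interval 0.0207 to 0.229, adjusted p = 0.0508), a difference that passed in 10 of 18 alternatives. The hairpin groups were at 0.10 (95% interval 0.000916 to 0.206, adjusted p = 0.0823) and 0.11 (0.0135 to 0.215, adjusted p = 0.0633) above Scramble. Those 2 differences passed in some alternatives: the first in 7 of 18, among them the 2 groups fitted alone (0.00764) and the fits without either library labelled RNF2 shRNA2 (0.0298 and 0.0309) or either PRT4165 library (0.0381 and 0.0288), the second in 2 of 17, without RNF2 shRNA2 replicate 1 (0.00943) or PRT4165 replicate 2 (0.0265).

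CRY2 (ENSG00000121671.7, chr11:45868669-45904798, plus strand), the second cryptochrome, changed with the hairpins. Its CPM was 10.7 and 9.73 in Scramble, 13.6 and 13.2 with RNF2 shRNA1, 11.8 and 13.1 in the libraries labelled RNF2 shRNA2, 10.3 and 10.4 with PRT4165, and 11.2 and 11.5 with GW-516. The 4 hairpin libraries other than Scramble were the highest of all. CRY2 rose 1.31-fold with RNF2 shRNA1 (log2 0.39, SE 0.0782, adjusted p = 1.54e-04) and 1.22-fold in the libraries labelled RNF2 shRNA2 (log2 0.29, SE 0.077, adjusted p = 0.00362). The second call was lost without Scramble replicate 2 (0.0692), without RNF2 shRNA2 replicate 2 (0.104) and with pairs summed (0.0589). With PRT4165 the difference was 0.017 (95% interval -0.147 to 0.180, adjusted p = 0.894) and with GW-516 0.15 (-0.0150 to 0.306, adjusted p = 0.118), which passed in 1 of 18 alternatives, a filter of 1 CPM in 2 libraries (0.0373). In the order Scramble, PRT4165, GW-516, RNF2 shRNA2 and RNF2 shRNA1 no neighbours differed (adjusted p = 0.894, 0.196, 0.102 and 0.27). CRY1 and CRY2 thus gave 2 patterns, CRY1 being called with both compounds and CRY2 with both hairpins; whether the effects on the 2 genes differ was not tested.

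NR1D1 (ENSG00000126368.5, chr17:38249040-38256978, minus strand), also called REV-ERB alpha, is a haem-binding repressor of ARNTL. Its CPM was 16.6 and 18.3 in Scramble, 24.0 and 26.0 with RNF2 shRNA1, 18.3 and 18.3 in the libraries labelled RNF2 shRNA2, 24.0 and 23.6 with PRT4165, and 26.8 and 24.8 with GW-516. The levels formed a lower set of 4 libraries, Scramble and those labelled RNF2 shRNA2, and a higher set of 6. NR1D1 rose 1.43-fold with RNF2 shRNA1 (log2 0.52, SE 0.0625, adjusted p = 1.26e-07), 1.36-fold with PRT4165 (log2 0.45, SE 0.0622, adjusted p = 2.19e-06) and 1.48-fold with GW-516 (log2 0.56, SE 0.0612, adjusted p = 2.12e-08). The difference was 0.063 in the libraries labelled RNF2 shRNA2 (95% interval -0.0663 to 0.193, adjusted p = 0.451), and these differed from RNF2 shRNA1 at adjusted p = 5.79e-07. The 3 higher groups did not differ between neighbours (adjusted p = 0.349 and 0.497). THRA, a thyroid hormone receptor gene that shares 263 exon bases with NR1D1 on the opposite strand, was at 26.8 and 24.4 CPM in Scramble, 17.3 and 17.4 with RNF2 shRNA1, and 17.5 and 17.6 in the libraries labelled RNF2 shRNA2. With PRT4165 THRA was at 27.9 and 28.6 CPM and with GW-516 at 24.8 and 24.6 CPM. The order of its groups was not that of NR1D1, and its part in the NR1D1 values was not tested.

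NR1D2 (ENSG00000174738.8, chr3:23986751-24022109, plus strand), or REV-ERB beta, acts on the same elements as NR1D1. Its CPM was 93.5 and 93.4 in Scramble, 154 and 156 with RNF2 shRNA1, 101 and 107 in the libraries labelled RNF2 shRNA2, 117 and 114 with PRT4165, and 87.7 and 86.5 with GW-516. It was highest with RNF2 shRNA1 and lowest with GW-516, with no overlap between any groups. NR1D2 rose 1.66-fold with RNF2 shRNA1 (log2 0.73, SE 0.0349, adjusted p = 6.18e-15) and 1.24-fold with PRT4165 (log2 0.31, SE 0.035, adjusted p = 8.07e-08). A rise of 0.15 in the libraries labelled RNF2 shRNA2 (SE 0.0349, adjusted p = 9.69e-04) was a call lost without RNF2 shRNA2 replicate 2 (0.0521) and with pairs summed (0.114). With GW-516 it fell by 0.10 (SE 0.0351, adjusted p = 0.0167). That call was lost in 10 of 18 alternatives, among them without Scramble replicate 1 (0.137) or 2 (0.141), GW-516 replicate 1 (0.108) or 2 (0.202), RNF2 shRNA1 replicate 2 (0.0882), and with pairs summed (0.321). The compounds parted here, NR1D2 being 1.33-fold lower with GW-516 than with PRT4165 (log2 -0.41, adjusted p = 9.37e-10), whereas for NR1D1 the same difference was 0.12 (95% interval -0.00311 to 0.241, adjusted p = 0.115).

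DBP (ENSG00000105516.6, chr19:49133287-49140695, minus strand) is a D-box activator and among the most strongly rhythmic outputs in tissues. It had the lowest level per kilobase of annotated exon, a place that depends on its annotated length of 6544 bases. Its CPM was 5.50 and 6.04 in Scramble, 7.07 and 7.02 with RNF2 shRNA1, 5.09 and 4.61 in the libraries labelled RNF2 shRNA2, 4.20 and 4.85 with PRT4165, and 5.16 and 4.83 with GW-516. The RNF2 shRNA1 libraries were the highest and the Scramble libraries came next. DBP rose 1.22-fold with RNF2 shRNA1 (log2 0.29, SE 0.107, adjusted p = 0.0254) and fell 1.28-fold with PRT4165 (log2 -0.35, SE 0.111, adjusted p = 0.0125). The first call was lost without Scramble replicate 1 (0.165), RNF2 shRNA1 replicate 1 (0.0962) or 2 (0.064) and with pairs summed (0.157), and the second without Scramble replicate 2 (0.155), PRT4165 replicate 1 (0.17) and with pairs summed (0.0864). The difference was -0.25 in the libraries labelled RNF2 shRNA2 (95% interval -0.479 to -0.0303, adjusted p = 0.0629) and -0.21 with GW-516 (-0.430 to 0.0173, adjusted p = 0.112). The first of these passed in 3 of 17 alternatives: without RNF2 shRNA2 replicate 1 (0.0376), without PRT4165 replicate 1 (0.0474) and with a filter of 1 CPM in 2 libraries (0.045). Between PRT4165, RNF2 shRNA2, GW-516 and Scramble, in rising order, no neighbours differed (adjusted p = 0.491, 0.723 and 0.112), and RNF2 shRNA1 exceeded the libraries labelled RNF2 shRNA2 by 1.46-fold (log2 -0.54 for the latter against the former, adjusted p = 1.02e-04). SPHK2, which encodes a sphingosine kinase and shares 660 exon bases with DBP on the opposite strand, was between 15.7 and 18.9 CPM in all groups but the libraries labelled RNF2 shRNA2, where it was 22.9 and 24.7 CPM; its part in the DBP values was not tested.

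BHLHE40 (ENSG00000134107.4, chr3:5020801-5027008, plus strand), also called DEC1, had the highest level per kilobase and rose with both compounds. Its CPM was 190 and 187 in Scramble, 184 and 183 with RNF2 shRNA1, 197 and 200 in the libraries labelled RNF2 shRNA2, 270 and 278 with PRT4165, and 361 and 368 with GW-516. All 4 compound libraries lay above all 6 hairpin libraries. BHLHE40 rose 1.45-fold with PRT4165 (log2 0.54, SE 0.0285, adjusted p = 1.07e-13) and 1.93-fold with GW-516 (log2 0.95, SE 0.0284, adjusted p = 8.21e-19), and the compounds differed from each other 1.33-fold (adjusted p = 2.22e-11). With RNF2 shRNA1 the difference was -0.039 (95% interval -0.0986 to 0.0200, adjusted p = 0.261). A rise of 0.074 in the libraries labelled RNF2 shRNA2 (adjusted p = 0.0388) was a call lost in 12 of 17 alternatives, among them without either Scramble library (0.157 and 0.161), either RNF2 shRNA1 library (0.0639 and 0.0502), RNF2 shRNA2 replicate 2 (0.21) or either GW-516 library (0.1 and 0.101), with pairs summed (0.494) and when replicate numbers entered as a block (0.0511). The antisense transcript BHLHE40-AS1, with 4 shared exon bases, was between 0.317 and 0.471 CPM in the hairpin libraries, 0.555 and 0.865 CPM with PRT4165 and 0.954 and 1.28 CPM with GW-516. COL1A1 and DCN, the fibroblast markers, summed to 46.9 and 46.3 CPM with GW-516, 25.3 and 29.7 CPM with PRT4165, 26.3 and 27.1 CPM in Scramble, 18.8 and 19.8 CPM with RNF2 shRNA1 and 15.4 and 16.9 CPM in the libraries labelled RNF2 shRNA2, with DCN at most 0.243 CPM in any library; their part in the results on any of the 10 genes was not tested.

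Among the direct comparisons of hairpin and compound groups, the libraries labelled RNF2 shRNA2 had 2 members higher and 6 lower than RNF2 shRNA1 (59.2% of all genes were called). PER1, PER3, NR1D1, NR1D2, DBP and CLOCK were the lower and PER2 and BHLHE40 the higher members. PRT4165 had 1 member higher and 7 lower than RNF2 shRNA1 (53.2% called) and 4 higher and 4 lower than the libraries labelled RNF2 shRNA2 (51.4% called). GW-516 had 1 higher and 8 lower than RNF2 shRNA1 (61.4% called) and 3 higher and 5 lower than the libraries labelled RNF2 shRNA2 (60.1% called). BHLHE40 was higher with each compound than in each hairpin group other than Scramble, and PER2, PER3 and CRY1 were lower, in all 4 of these comparisons. GW-516 had BHLHE40 and PER1 higher and CLOCK, NR1D2 and PER3 lower than PRT4165 (41.1% of all genes called), and the 5 calls held in every alternative. The doses of the 2 compounds are not given in the sources used here, so these last differences are those of the 2 treatments as they were applied.

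Beyond the 10 members, a list of 22 other clock genes was read in the same fit. Of these, 20 passed the filter on low counts and were tested. With RNF2 shRNA1, 10 of the 20 rose and 6 fell; in the libraries labelled RNF2 shRNA2, 8 rose and 4 fell; with PRT4165, 10 rose and 4 fell; with GW-516, 8 rose and 7 fell. Their median log2 changes were 0.162, 0.0159, 0.0989 and 0.0791, and their shares called stand beside the same backgrounds as above. The list was chosen with earlier results of these data known.

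**Figure D4:**
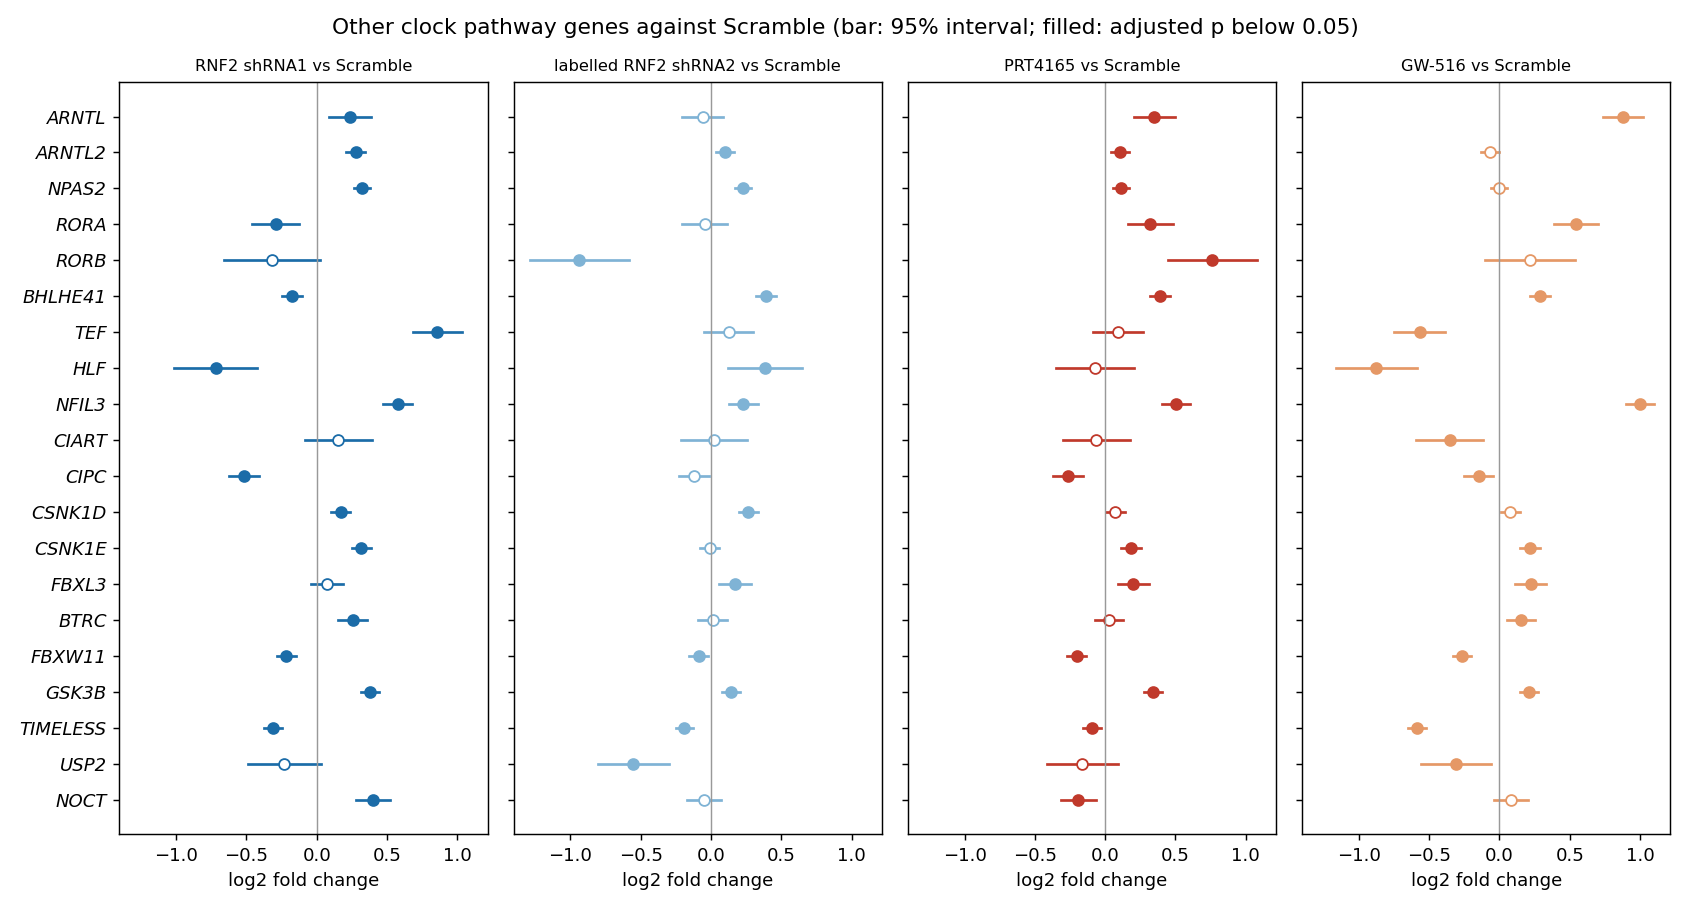
Log2 fold change against Scramble (x axis) of the 20 other clock genes tested (y axis), in 4 panels for the hairpin and compound groups; bars are 95% intervals and filled points have an adjusted p below 0.05. NFIL3 lies to the right of 0 in every panel, while HLF lies at -0.72 with RNF2 shRNA1, 0.39 in the libraries labelled RNF2 shRNA2 and -0.88 with GW-516.

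Of the activators, ARNTL, the partner of CLOCK, was at 12.9 and 11.3 CPM in Scramble, 14.5 and 14.0 with RNF2 shRNA1, 11.2 and 11.9 in the libraries labelled RNF2 shRNA2, 15.5 and 15.2 with PRT4165, and 22.1 and 22.4 with GW-516. The GW-516 libraries were the highest, where CLOCK was lowest. ARNTL rose 1.84-fold with GW-516 (log2 0.88, adjusted p = 6.3e-11), by 0.35 with PRT4165 (adjusted p = 2.67e-04) and by 0.24 with RNF2 shRNA1 (adjusted p = 0.007). NPAS2, a paralogue of CLOCK that can take its place beside ARNTL, was at 245 and 244 CPM in Scramble and rose to 305 and 307 CPM with RNF2 shRNA1 (log2 0.32, adjusted p = 3.27e-10). It also rose by 0.23 in the libraries labelled RNF2 shRNA2 (adjusted p = 2.41e-07) and by 0.11 with PRT4165 (adjusted p = 0.00225), and its difference with GW-516 was -0.0060 (adjusted p = 0.873). ARNTL2, a paralogue of ARNTL, rose by 0.28 with RNF2 shRNA1 (adjusted p = 5.02e-08), by 0.10 in the libraries labelled RNF2 shRNA2 (0.0117) and by 0.10 with PRT4165 (0.00994).

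RORA and RORB, receptors that activate at the elements NR1D1 and NR1D2 repress, rose with PRT4165. RORA was at 11.3 and 10.6 CPM in Scramble, 14.1 and 13.3 with PRT4165 and 16.0 and 16.0 with GW-516, log2 changes of 0.32 (adjusted p = 0.00154) and 0.54 (adjusted p = 1.17e-06). It fell with RNF2 shRNA1, to 8.45 and 9.48 CPM (log2 -0.29, adjusted p = 0.00356). RORB was low, at 2.29 and 2.16 CPM in Scramble, 4.02 and 3.52 with PRT4165 (log2 0.76, adjusted p = 2.09e-04) and 1.16 and 1.17 in the libraries labelled RNF2 shRNA2 (log2 -0.94, adjusted p = 7.33e-05). RORA, RORB and ARNTL were all called higher with PRT4165, as was NR1D1.

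The output factors that bind D-boxes moved apart from each other. TEF, a relative of DBP, was at 8.58 and 9.18 CPM in Scramble, 16.7 and 15.4 with RNF2 shRNA1 (log2 0.86, adjusted p = 3.37e-09) and 5.74 and 6.24 with GW-516 (log2 -0.57, adjusted p = 6.34e-06). HLF, the remaining factor of that family, was at 3.36 and 3.57 CPM in Scramble and fell both with RNF2 shRNA1, to 1.94 and 2.28 CPM (log2 -0.72, adjusted p = 1.36e-04), and with GW-516, to 1.98 and 1.8 CPM (log2 -0.88, adjusted p = 8.69e-06). HLF rose, by 0.39, in the libraries labelled RNF2 shRNA2 (adjusted p = 0.018). NFIL3, the repressor at the same sites, rose in all 4 comparisons: from 23.1 and 23.5 CPM in Scramble to 34.4 and 34.9 with RNF2 shRNA1 (log2 0.58, adjusted p = 3.6e-10), 26.8 and 27.7 in the libraries labelled RNF2 shRNA2 (0.23, 5.09e-04), 33.0 and 32.9 with PRT4165 (0.50, 8.43e-09) and 47.7 and 45.3 with GW-516 (1.00, 8.41e-15). With GW-516, then, NFIL3 rose while TEF and HLF fell, and DBP, at -0.21, was not called.

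BHLHE41, the paralogue of BHLHE40, rose with both compounds as BHLHE40 did, by 0.39 with PRT4165 (adjusted p = 1.47e-09) and 0.29 with GW-516 (adjusted p = 1.03e-07). It also rose by 0.39 in the libraries labelled RNF2 shRNA2 (adjusted p = 1.63e-09) and fell by 0.18 with RNF2 shRNA1 (adjusted p = 1.40e-04). Its levels were 74.0 and 73.3 CPM in Scramble, 66.0 and 64.3 with RNF2 shRNA1, 96.1 and 96.7 in the libraries labelled RNF2 shRNA2, 96.3 and 96.9 with PRT4165 and 90.3 and 89.8 with GW-516. The paralogues thus differed in their order, BHLHE40 being highest with GW-516 and BHLHE41 being lower there than with PRT4165 (log2 -0.10, adjusted p = 0.0185). CIART, a repressor of CLOCK and ARNTL, fell with GW-516, from 4.33 and 4.45 CPM to 3.60 and 3.27 CPM (log2 -0.35, adjusted p = 0.0119).

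Among the kinases, ubiquitin ligase parts and other regulators, GSK3B, a kinase that phosphorylates several clock proteins, rose by 0.38 with RNF2 shRNA1 (adjusted p = 1.76e-10) and by 0.34 with PRT4165 (adjusted p = 2.47e-09). TIMELESS, a replication fork protein with a debated part in the mammalian clock, fell by 0.59 with GW-516 (adjusted p = 4.17e-14). It also fell by 0.31 with RNF2 shRNA1 (4.05e-09), by 0.19 in the libraries labelled RNF2 shRNA2 (1.86e-05) and by 0.096 with PRT4165 (0.0136). CIPC, an inhibitor of CLOCK, fell by 0.52 with RNF2 shRNA1 (adjusted p = 6.94e-09). It also fell by 0.26 with PRT4165 (1.76e-04) and by 0.15 with GW-516 (0.0156). Its difference in the libraries labelled RNF2 shRNA2 was -0.12 (0.0598). CSNK1D, a casein kinase that marks PER proteins for breakdown, rose by 0.26 in the libraries labelled RNF2 shRNA2 (adjusted p = 3.73e-07). GSK3B also rose there, by 0.14 (7.07e-04). CSNK1D rose by 0.17 with RNF2 shRNA1 as well (8.45e-05) and was not called with PRT4165 (0.0891) or GW-516 (0.052). FBXW11, part of the ligase that recognises PER proteins, fell by 0.20 with PRT4165 (adjusted p = 1.55e-05) and by 0.27 with GW-516 (1.40e-07). FBXW11 also fell by 0.22 with RNF2 shRNA1 (3.74e-06) and by 0.086 in the libraries labelled RNF2 shRNA2 (0.0342). CSNK1E rose by 0.18 with PRT4165 (8.59e-05), by 0.32 with RNF2 shRNA1 (1.57e-08) and by 0.22 with GW-516 (6.24e-06). Its difference in the libraries labelled RNF2 shRNA2 was -0.0099 (0.845). GSK3B rose by 0.21 with GW-516 (3.41e-06).

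For PER3 and PER2, the members with the widest ranges, the genes of most similar course were sought by Pearson correlation of log2 CPM over the 10 libraries, among 10730 genes whose mean was 5 CPM or more. The points are pairs within 5 groups that share their treatment, so the values describe likeness only. MEAF6 (r = 0.9948), NCBP2 (0.9945) and GSTK1 (0.9928) were most like PER3, in narrower ranges: MEAF6 went from 74.1 CPM with RNF2 shRNA1 to 51.7 CPM with GW-516 while PER3 went from 30.3 to 7.46 CPM. CPSF1 (r = 0.9888), SMYD5 (0.9871) and DOCK11 (0.9865) were most like PER2, and DOCK11 stood at 289 CPM in the libraries labelled RNF2 shRNA2 against 142 CPM in Scramble.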

How the data were processed

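RNA of 10 PC3 libraries, 2 per group, was measured by stranded paired-end sequencing, per the labels' protocols. The authors deposited unnormalized counts for every gene, made with featureCounts 1.4.3-p1 (strand option 2, GENCODE 18), per the file headers; the command has no option for pairs, so both ends of a fragment were counted. The submitters' processing notes list hg19 (GRCh37), STAR with no version and DESeq2 1.8.1, without roles. Symbols were found for 51488 of 57445 identifiers (89.6%). Counts were tested with edgeR 4.0.16 (R 4.3.3): TMM factors (0.972 to 1.05), filterByExpr with a minimum count of 10, a group-means model of all 10 libraries with 5 residual degrees of freedom, and robust two-sided quasi-likelihood F tests with Benjamini-Hochberg adjustment over 18478 genes; calls are at an adjusted p below 0.05. The procedure was tested on simulated data, where changes in genes below 5 CPM were often missed. A first criterion, on the recovery of changed genes at all levels, was therefore not met. It was replaced by recovery at 5 CPM or more, the accuracy of the folds and the share of false calls. Levels are TMM-normalized CPM, and exon lengths come from the count tables. Promoter windows are those of RefSeq (GRCh38.p14), with exons of GENCODE 29 taken out of the printed stretches. Named were the 10 members, the transcription factors and repressors of the other clock genes, up to 3 of the rest per comparison with the smallest adjusted p, RNF2 and BMI1, and 3 genes most like each of 2 members; the genes that overlap members and the fibroblast markers were added for their position or as markers. The members and lists were chosen with earlier results of these data known. Alternatives were RLE factors, DESeq2 1.42.0, other filters, the 2 groups alone, the replicate number as a block, close pairs summed, the libraries labelled RNF2 shRNA2 left out, and each library left out.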

Additional observations from a re-analysis of the deposited data

How the results depend on the processing

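Of 40 member differences from Scramble 28 were called, 18 of these kept the call in every alternative run and 10 lost it in some; of the 12 not called, 4 passed in some. Over all alternatives 639 member values stayed on their side of the threshold, 58 lost the call, 13 gained it and 0 called values changed sign. With the 3 close pairs each summed to 1 sample, the libraries labelled RNF2 shRNA2 had 2 members called instead of 6, 7 other clock genes instead of 12 and 4902 of all genes instead of 7772, and PRT4165 had 9 other clock genes instead of 14 and 4911 of all genes instead of 7695; this fit has fewer samples. Leaving out each library in turn changed the number of members called in every comparison, most widely for the libraries labelled RNF2 shRNA2. Shares of all genes called, 41.6% to 55.5% in the main fit, are not given for the alternatives. Member counts in the alternatives therefore stand without their background. The correlations of deviations between same-numbered libraries ran from -0.0884 to 0.0161. In the close pairs these deviations are largely counting noise, so the values cannot tell whether the numbers pair the samples. With the replicate number as a block, 7 members were called with RNF2 shRNA1, 5 in the libraries labelled RNF2 shRNA2, 7 with PRT4165 and 8 with GW-516, and the BHLHE40 call in the libraries labelled RNF2 shRNA2 was lost (adjusted p = 0.0511). DBP and PER2, the members with the lowest counts, had the largest standard errors against Scramble, 0.107 to 0.111 and 0.0788 to 0.0855 on the log2 scale.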
